A study of Mus musculus with 12 samples.

Results

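Lysosomal hydrolases, their activators, lysosomal membrane proteins and the receptors that sort them were followed in mouse cortex with and without a tau transgene. The set was a list of 42 genes that leaves out the cathepsins. A member was read from the row of the array table whose annotation gives its symbol and no other, and the row with the highest mean was taken where a symbol had several. Of the 42 genes, 40 had such a row, among 30184 symbols on the array, and 34 passed the filter on signal, the minimum log2 intensity that the methods ask of 1 array or more, among 12566 genes that did. This minimum is called the signal limit here. Cln3, Naglu, Manba, Sgsh, Arsa and Tfeb stayed under the filter. Glb1 and Dnase2a had only rows shared with another symbol and entered no test.

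Lysosomes are the acidic organelles in which cells break down proteins, glycans and lipids that arrive by endocytosis, phagocytosis or autophagy. Their soluble enzymes are made in the endoplasmic reticulum, tagged with mannose 6-phosphate or bound by sortilin, and carried to the organelle by sorting receptors, while heavily glycosylated membrane proteins line its inner face. Inherited loss of single members causes storage diseases, many of which harm the brain, and the transcription factor TFEB is known for raising many of these genes together.

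Cortical RNA was hybridised to Clariom D arrays, 1 per sample, and the deposited values are log2 intensities. The Tg mice were rTg4510 mice that carry Tg(Camk2a-tTA)1Mmay and Tg(tetO-MAPT*P301L)4510Kha/J, and make human 0N4R tau with the P301L mutation under a tetracycline-off driver active in forebrain excitatory neurons. The Non mice were FVB/NJ mice labelled wild type, described in the methods as littermates. Tg + Dox (n = 3) and Non + Dox (n = 2) mice ate feed with 200 ppm doxycycline for 35 days. Tg + Veh (n = 3) and Non + Veh (n = 3) mice ate normal feed. The starting age is given as 3.5 months for all groups. The methods state that mice were killed on the last day of doxycycline treatment. Doxycycline lowers the transgene without silencing it: the labels put human tau at about 5 to 8 times the mouse level in Tg + Dox mice and at about 13 times in Tg + Veh mice. The arrays came from 1 male and 2 female Tg + Dox mice, 2 male and 1 female Tg + Veh mice, 2 male Non + Dox mice, and 1 male and 2 female Non + Veh mice, so feed and sex cannot be told apart within Non + Dox. A further Tg + Veh array, replicate 4, is given beside the others but left out of the tests, since the study removed 1 such sample after quality control and this array stood apart, with a first principal component of 32.2 against −12.1 to 12.4 on the other 11. Nothing in the sources says how many animals gave the RNA of an array, so p-values measure only the spread between these samples.

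The labels were compared with the arrays. Xist, the RNA of the inactive X chromosome, reached 15.3 to 15.6 in the 6 samples labelled female and 5.62 to 6.09 in the 6 labelled male. Fgf14, where the tau transgene of this line is inserted, ranged from 10.85 to 11.34 in the 7 Tg samples and from 12.01 to 12.29 in the 5 Non samples. The driver transgene is inserted near Esyt2, Ptprn2 and Wdr60, and Non + Veh 3 and Non + Dox 2 had Tg-like values of all 3. Esyt2 ranged from 9.45 to 9.74 in Tg samples, reached 9.60 and 9.61 in those 2 Non samples, and ranged from 10.86 to 11.23 in the other Non samples. The labels call both mice wild type, and results are therefore also given without both arrays.

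Transcripts of several lysosomal membrane proteins and enzymes were higher in the cortex of Tg + Veh than of Non + Veh mice. Tau, the driver transgene and the insertion sites cannot be told apart in this comparison. In Tg + Veh over Non + Veh, 30 of the 34 members tested had a positive log2 difference (59.3% of all genes), with a median of 0.22 over the members and 0.02 over all genes tested. At a limma adjusted p under 0.05 over all genes, 8 members rose and none fell: Lamp1, Lamp2, Scarb2, Laptm5, Hexa, Gusb, Man2b1 and Lgmn. That is 8 of 34, against 1.86% of all genes tested called higher and 0.135% called lower. A difference with an unadjusted p under 0.05 was seen in 17 members, all higher (10.2% of all genes). In 17 members every Tg + Veh array tested lay above every Non + Veh array (13.5% of all genes), and in none was the reverse true (5.28%). Gusb and Npc2 passed the filter on signal only through Tg + Veh arrays and Laptm5 only through Tg arrays, so these 3 entered the table because they were high there. Of the other 31 members, 6 were called. A higher value in cortex can mean more cells of a type or more RNA per cell, and the arrays cannot tell these apart.

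**Figure D1:**
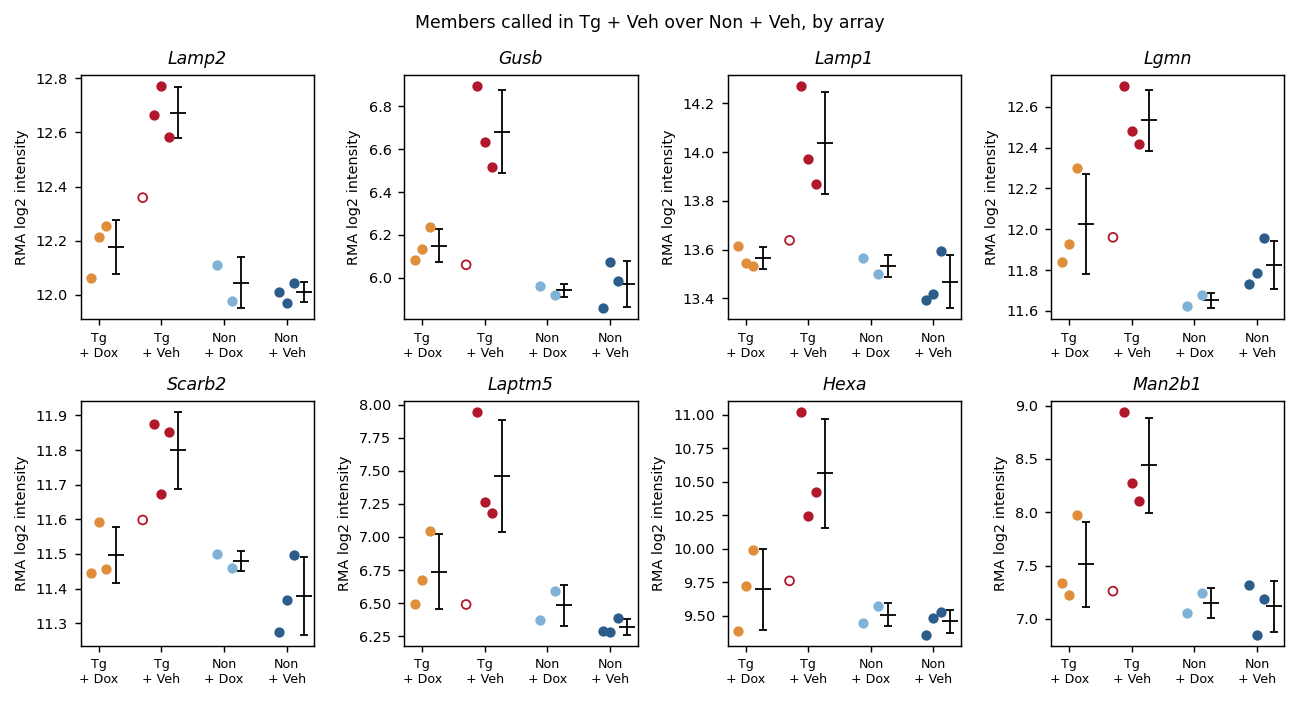
RMA log2 intensity (y axis) of the 8 members called in Tg + Veh over Non + Veh, by group (x axis), 1 point per array, with the mean and SD of the group as a bar beside the points. The open point is Tg + Veh 4, which is in no mean or test. The 3 filled Tg + Veh points lie above all Non + Veh and all Tg + Dox points in every panel.

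Membrane proteins held the largest number of called members, 4 of 8 tested. Lamp2, a major glycoprotein of the lysosomal membrane with a role in autophagy, is X-linked and had the smallest adjusted p of the set. Lamp2 was at 12.06, 12.22 and 12.25 on the Tg + Dox arrays, 12.66, 12.77 and 12.58 on the Tg + Veh arrays, 12.11 and 11.98 on the Non + Dox arrays, and 12.01, 11.97 and 12.05 on the Non + Veh arrays. The Tg + Veh arrays stood above all others, and the Tg + Dox arrays overlapped the Non + Dox arrays. Over Non + Veh, Lamp2 rose in Tg + Veh by a log2 difference of 0.66 with a standard error (SE) of 0.068 (limma adjusted p = 0.00452), a 1.59-fold change. It fell by 0.50 in Tg + Dox over Tg + Veh (SE 0.068, adjusted p = 0.0312), the only member called in that comparison.

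Lamp1, the other abundant glycoprotein that lines the lysosomal membrane, was at 13.62, 13.54 and 13.53 on the Tg + Dox arrays, 14.27, 13.97 and 13.87 on the Tg + Veh arrays, 13.57 and 13.50 on the Non + Dox arrays, and 13.39, 13.42 and 13.59 on the Non + Veh arrays. Tg + Veh 1 was the highest, and the other 3 groups lay close together. Its difference was 0.57 in Tg + Veh over Non + Veh (SE 0.098, adjusted p = 0.0250) and −0.47 for Tg + Dox over Tg + Veh (adjusted p = 0.0678). Scarb2, which carries β-glucocerebrosidase to the lysosome, was at 11.44, 11.59 and 11.46 on the Tg + Dox arrays, 11.87, 11.67 and 11.85 on the Tg + Veh arrays, 11.50 and 11.46 on the Non + Dox arrays, and 11.27, 11.37 and 11.50 on the Non + Veh arrays. Here the gap between the lowest Tg + Veh array and the highest array of the other groups was narrow. The difference was 0.42 over Non + Veh (SE 0.075, adjusted p = 0.0270) and −0.30 for Tg + Dox over Tg + Veh (adjusted p = 0.111).

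Laptm5 encodes a lysosomal transmembrane protein of haematopoietic cells, microglia in brain. It was at 6.50, 6.67 and 7.05 on the Tg + Dox arrays, 7.94, 7.26 and 7.18 on the Tg + Veh arrays, 6.38 and 6.59 on the Non + Dox arrays, and 6.29, 6.28 and 6.39 on the Non + Veh arrays. All Non arrays were under the signal limit, and 1 of the Tg + Dox arrays was over it. The rise in Tg + Veh over Non + Veh was 1.14 (SE 0.203, adjusted p = 0.0270), with no fold given because all Non + Veh values were under the limit. The Tg + Dox over Tg + Veh difference was −0.72 (adjusted p = 0.143). Laptm4a, a lysosomal transmembrane protein, and Npc1, the cholesterol exporter of the lysosome, had Tg + Veh arrays above all Non + Veh arrays without passing the test. Their differences were 0.31 and 0.34 (adjusted p = 0.0741 and 0.0744). Cd164, a sialomucin, had a difference of 0.12 (adjusted p = 0.400), and Mcoln1, the TRPML1 calcium channel, one of −0.07 (adjusted p = 0.819). Cln3, a membrane protein lost in juvenile Batten disease, did not exceed 6.53 on any of the 11 arrays.

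The sequences around the gene starts are shown for the LAMP pair because the windows differ in a motif. TFEB binds the E-box CACGTG, which lies at the core of the CLEAR element found near many lysosomal genes. Windows of 300 bases were taken from RefSeq promoters of GRCm38.p6 and searched for CACGTG and for TCACGTGA, which contains it. Each is its own reverse complement, so both strands are covered. Lamp1 (chr8:13158911-13159210, plus strand) held 4 copies of CACGTG, and Lamp2 (chrX:38456411-38456710, minus strand) held none. Capitals mark CACGTG.
Lamp1: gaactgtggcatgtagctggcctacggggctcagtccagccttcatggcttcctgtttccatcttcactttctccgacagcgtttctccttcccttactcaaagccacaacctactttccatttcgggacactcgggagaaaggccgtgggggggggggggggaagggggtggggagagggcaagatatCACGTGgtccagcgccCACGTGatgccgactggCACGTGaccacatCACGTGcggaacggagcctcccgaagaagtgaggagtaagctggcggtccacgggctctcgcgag
Lamp2: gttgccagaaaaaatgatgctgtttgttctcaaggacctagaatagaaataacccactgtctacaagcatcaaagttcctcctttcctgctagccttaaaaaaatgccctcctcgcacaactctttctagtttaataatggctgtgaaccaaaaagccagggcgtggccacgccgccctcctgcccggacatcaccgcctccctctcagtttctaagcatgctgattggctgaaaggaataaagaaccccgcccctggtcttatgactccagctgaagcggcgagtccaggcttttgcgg
Of the 34 members tested, 29 had a window. CACGTG was in 7 of them (24.1%), against 8.09% of 27025 genes with a window. It was in 2 of the 8 called members, Lamp1 and Lgmn. TCACGTGA was in 4 of the 29 (13.8%) and in none of the 8 called members, against 1.12% of all genes. These counts describe the letters of the windows only.

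Among the glycosidases, enzymes that trim sugars from glycoproteins and glycolipids, all 9 tested members were higher in Tg + Veh than in Non + Veh and 3 were called. Man2b1, the lysosomal α-mannosidase, had the largest difference of the set. It was at 7.33, 7.23 and 7.97 on the Tg + Dox arrays, 8.94, 8.28 and 8.10 on the Tg + Veh arrays, 7.05 and 7.25 on the Non + Dox arrays, and 7.32, 6.85 and 7.18 on the Non + Veh arrays. Tg + Dox 3 came close to the lowest Tg + Veh array, while the other Tg + Dox arrays lay near the Non arrays. The difference over Non + Veh was 1.32 (SE 0.253, adjusted p = 0.0341), a 2.50-fold change, and that of Tg + Dox over Tg + Veh was −0.93 (adjusted p = 0.133).

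Hexa encodes the α subunit of β-hexosaminidase, which degrades GM2 ganglioside. It was at 9.39, 9.72 and 9.99 on the Tg + Dox arrays, 11.02, 10.24 and 10.42 on the Tg + Veh arrays, 9.45 and 9.57 on the Non + Dox arrays, and 9.36, 9.49 and 9.53 on the Non + Veh arrays. Tg + Dox 1 lay within the range of the Non arrays, and Tg + Dox 2 and 3 lay between the Non arrays and the lowest Tg + Veh array tested. Hexa rose by 1.10 in Tg + Veh over Non + Veh (SE 0.202, adjusted p = 0.0294), or 2.15-fold, and its difference in Tg + Dox over Tg + Veh was −0.86 (adjusted p = 0.0961). Gusb, the β-glucuronidase that acts on glycosaminoglycans, was at 6.08, 6.13 and 6.23 on the Tg + Dox arrays, 6.90, 6.63 and 6.52 on the Tg + Veh arrays, 5.96 and 5.92 on the Non + Dox arrays, and 5.86, 6.07 and 5.98 on the Non + Veh arrays. Only Tg + Veh 1 was over the signal limit, so all its other values are dim. Its rise was 0.71 (SE 0.096, adjusted p = 0.010), with no fold given for the same reason as in Laptm5, and the difference in Tg + Dox over Tg + Veh was −0.53 (adjusted p = 0.0513).

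The other glycosidases differed less. Fuca1, the lysosomal α-fucosidase, was 0.39 higher in Tg + Veh than in Non + Veh (adjusted p = 0.0570), and Galc, which removes galactose from myelin lipids, was 0.27 higher (adjusted p = 0.0744). In both of them the Tg + Veh arrays lay above all Non + Veh arrays. The deposited value of Galc was identical, 8.38, on all 3 Tg + Dox and both Non + Dox arrays, as happens on 4 or more of the 11 arrays for 29.1% of all genes tested and for 4 members, so its spread within those groups is not measured. Gla, the X-linked α-galactosidase lost in Fabry disease, had a difference of 0.20 (adjusted p = 0.298). Gaa, which breaks down glycogen, Neu1, a sialidase, and Idua, an iduronidase, had differences of 0.04, 0.06 and 0.04, with adjusted p of 0.959, 0.670 and 0.891. The 95% interval for Gaa ran from −0.40 to 0.48, so changes of that size could not be told from the spread. Naglu and Manba were under the signal limit.

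Sulfatases and the lipid, phosphate and ester hydrolases held no called member. Ids, the X-linked iduronate sulfatase, had the largest difference of the sulfatases, and it pointed down. Ids was at 15.13, 15.40 and 15.16 on the Tg + Dox arrays, 15.22, 15.22 and 14.80 on the Tg + Veh arrays, 15.10 and 15.28 on the Non + Dox arrays, and 15.15, 15.33 and 15.12 on the Non + Veh arrays. Tg + Veh 3 alone was low, and without it the difference of −0.12 (adjusted p = 0.714) became 0.021. Arsb, arylsulfatase B, differed by 0.09 (adjusted p = 0.757), and Sgsh and Arsa were under the signal limit.

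Asah1, acid ceramidase, had the largest difference of the 6 hydrolases of lipids, phosphates and related substrates that were tested. It was at 8.89, 8.98 and 9.03 on the Tg + Dox arrays, 9.11, 9.22 and 9.14 on the Tg + Veh arrays, 8.996 and 8.93 on the Non + Dox arrays, and 8.99, 8.93 and 9.01 on the Non + Veh arrays. The Tg + Veh arrays were above all others by a narrow margin, at a difference of 0.17 over Non + Veh (SE 0.051, adjusted p = 0.148). Acp2, an acid phosphatase, Ppt1, a palmitoyl-protein thioesterase, Smpd1, acid sphingomyelinase, Lipa, acid lipase, and Plbd2 had differences between −0.01 and 0.12. The interval for Lipa, from −0.52 to 0.52, was the widest of the group.

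Both peptidases of the list were higher in Tg + Veh, and Lgmn was called. Lgmn encodes legumain, the asparaginyl endopeptidase, which can cleave tau. It was at 11.84, 11.93 and 12.30 on the Tg + Dox arrays, 12.70, 12.48 and 12.42 on the Tg + Veh arrays, 11.62 and 11.68 on the Non + Dox arrays, and 11.73, 11.79 and 11.96 on the Non + Veh arrays. The Tg + Veh arrays stood above all others, and the Tg + Dox arrays stood above both Non + Dox arrays. The rise over Non + Veh was 0.71 (SE 0.124, adjusted p = 0.0254), or 1.64-fold, and the difference in Tg + Dox over Tg + Veh was −0.51 (adjusted p = 0.104). Tpp1, tripeptidyl peptidase, differed by 0.38 (SE 0.252, adjusted p = 0.550), with Tg + Veh arrays at 12.74, 12.50 and 11.77 and Non + Veh arrays at 12.02, 12.02 and 11.85, which overlapped. RefSeq gives Lgmn more than 1 start, and the window at chr12:102439043-102439342 on the minus strand is shown as the one that holds CACGTG, in capitals.
Lgmn: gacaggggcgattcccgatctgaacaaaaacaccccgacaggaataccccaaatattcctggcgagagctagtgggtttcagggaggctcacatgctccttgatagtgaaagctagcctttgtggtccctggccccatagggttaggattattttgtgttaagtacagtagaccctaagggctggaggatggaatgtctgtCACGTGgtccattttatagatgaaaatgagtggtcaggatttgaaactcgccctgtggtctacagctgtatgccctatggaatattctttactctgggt

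Activators and soluble carriers, proteins that present lipids or regulate enzymes, were all higher in Tg + Veh than in Non + Veh, and none of the 4 was called. Grn, the progranulin gene, whose loss causes a form of frontotemporal dementia and, in both copies, a storage disease, had the largest difference. It was at 7.75, 7.95 and 8.53 on the Tg + Dox arrays, 9.29, 8.43 and 8.21 on the Tg + Veh arrays, 7.58 and 7.89 on the Non + Dox arrays, and 7.48, 7.93 and 7.70 on the Non + Veh arrays. Tg + Veh 1 was far above the other arrays of its group, and Tg + Dox 3 was higher than 2 of the Tg + Veh arrays. The difference of 0.94 had a standard error of 0.290 and an adjusted p of 0.183.

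Npc2, the soluble cholesterol carrier that hands its cargo to Npc1, was just outside the threshold in Tg + Veh over Non + Veh. It was at 6.49, 6.73 and 6.74 on the Tg + Dox arrays, 7.65, 7.27 and 7.03 on the Tg + Veh arrays, 6.62 and 6.59 on the Non + Dox arrays, and 6.66, 6.65 and 6.73 on the Non + Veh arrays. Only the Tg + Veh arrays were over the signal limit. The difference was 0.64 (SE 0.135, adjusted p = 0.0534), and for Tg + Dox over Tg + Veh it was −0.67 (adjusted p = 0.0656). Gm2a, the activator that lifts GM2 ganglioside for Hexa, differed by 0.37 (adjusted p = 0.348), and Psap, the precursor of the saposins, by 0.13 (adjusted p = 0.548).

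Sorting receptors did not pass the test in either direction. M6pr, the cation-dependent mannose 6-phosphate receptor, was at 10.99, 11.26 and 11.17 on the Tg + Dox arrays, 11.38, 11.57 and 11.35 on the Tg + Veh arrays, 11.18 and 11.13 on the Non + Dox arrays, and 11.34, 11.26 and 10.96 on the Non + Veh arrays. The lowest Tg + Veh array lay just above the highest Non + Veh array, at a difference of 0.24 (SE 0.109, adjusted p = 0.369). Sort1, sortilin, differed by −0.11 (adjusted p = 0.484). Sort1 and Igf2r each had 1 deposited value repeated on 4 of the 11 arrays, so their spread is poorly measured. Igf2r, the larger mannose 6-phosphate receptor, differed by 0.04, with a 95% interval from −0.05 to 0.14. Its window (chr17:12769657-12769956, minus strand) is shown as one of the 4 windows with TCACGTGA among the tested members. The capitals again mark CACGTG.
Igf2r: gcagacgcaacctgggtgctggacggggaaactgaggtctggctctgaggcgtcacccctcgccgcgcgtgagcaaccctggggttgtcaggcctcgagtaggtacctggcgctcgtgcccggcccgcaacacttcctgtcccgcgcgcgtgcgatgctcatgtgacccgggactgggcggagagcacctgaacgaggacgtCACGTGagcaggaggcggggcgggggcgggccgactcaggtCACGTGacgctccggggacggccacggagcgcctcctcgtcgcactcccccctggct

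Tfeb itself was under the signal limit, at 5.80 to 5.91 on the 11 arrays. Its row therefore gives no measure of change.

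**Figure D2:**
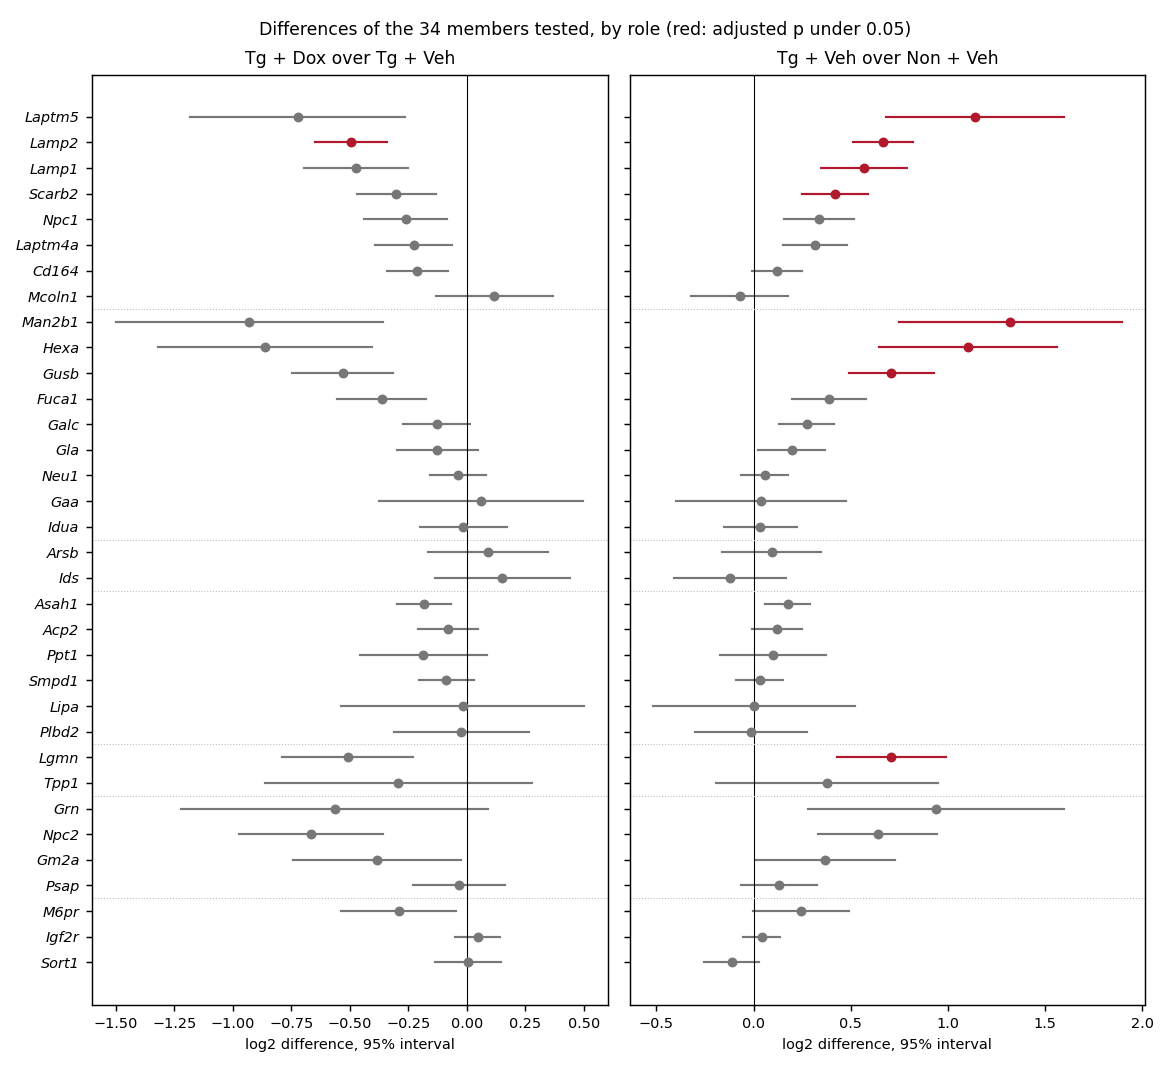
Log2 difference (x axis) with its 95% interval from limma for each of the 34 members tested (y axis, grouped by role), Tg + Dox over Tg + Veh on the left and Tg + Veh over Non + Veh on the right. Red marks an adjusted p under 0.05, which 1 member passed on the left and 8 on the right, and dotted lines part the roles.

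In Tg mice on doxycycline, the members called in Tg + Veh over Non + Veh were lower, and 1 of them passed the test. Each had lower values on every Tg + Dox array than on Tg + Veh 1, 2 and 3. Tg + Veh 4, the array outside the tests, lay above every Tg + Dox array in Lamp1, Lamp2 and Scarb2. It did not in Laptm5, Hexa, Gusb, Man2b1 and Lgmn, and in Laptm5 and Gusb it lay below every Tg + Dox array. In Tg + Dox over Tg + Veh, 28 of 34 members had a negative difference (56.9% of all genes), with a median of −0.20 over the members and −0.02 over all genes tested. Lamp2 alone was called, lower, against 0.613% of all genes tested. A further 15 members had an unadjusted p under 0.05, which made 16, all lower (10.4% of all genes). In 16 members every Tg + Dox array lay below every Tg + Veh array tested (11.7% of all genes). All 8 members called in Tg + Veh over Non + Veh were among those 16. Both comparisons use the same Tg + Veh arrays, so a high value there raises one difference and lowers the other, and the pair is not independent.

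Between genotypes on doxycycline, no member was called. In Tg + Dox over Non + Dox limma called none of the 34 members, as it called none of all genes tested (0%), and 1 member had an unadjusted p under 0.05 (2.13% of all genes, higher). That member was Lgmn, at a difference of 0.37 with a 95% interval from 0.06 to 0.69 (adjusted p = 0.744). The other 33 intervals included 0. The median half-width over the 34 members was 0.245, but the width differed by member. The interval ran from −0.09 to 0.12 for Igf2r and from −0.39 to 1.07 for Grn. The size of a difference that could have been missed therefore differed as well. Differences were positive in 28 of the 34 members, at a median of 0.05, against 48.3% of all genes. In 4 members, Gusb, Lgmn, Laptm4a and Npc1, the Tg + Dox arrays lay above both Non + Dox arrays (6.32% of all genes), and in Cd164 they lay below (8.91%). With 2 Non + Dox arrays such a separation asks little. The largest difference was that of Tpp1, 0.45, whose interval ran from −0.19 to 1.09.

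Doxycycline in Non mice gave no called member either. In Non + Dox over Non + Veh the differences were positive in 17 members (56.2% of all genes) and negative in 17 (43.8%), with a median of −0.0038, and none of the 34 or of all genes tested (0%) passed at an adjusted p under 0.05. Sort1 had the only unadjusted p under 0.05, at −0.18 (adjusted p = 0.409), as 4.03% of all genes did in that direction. Separation of the 2 groups was complete in 6 members, Galc and Igf2r higher (14.7% of all genes) and Idua, Lgmn, Npc2 and Tpp1 lower (10.1%). The interaction of genotype and feed, which asks whether doxycycline moved a transcript differently in Tg than in Non mice, was negative in 26 members (60.6% of all genes). None was called, as in all genes (0%), and 12 had an unadjusted p under 0.05, all negative (6.65% of all genes). Lamp2 had the smallest adjusted p of the members there, 0.317, at −0.53 with an interval from −0.76 to −0.30. The interaction uses the Tg + Veh and Non + Veh arrays by which members were called higher, so it is not independent of that call.

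**Figure D3:**
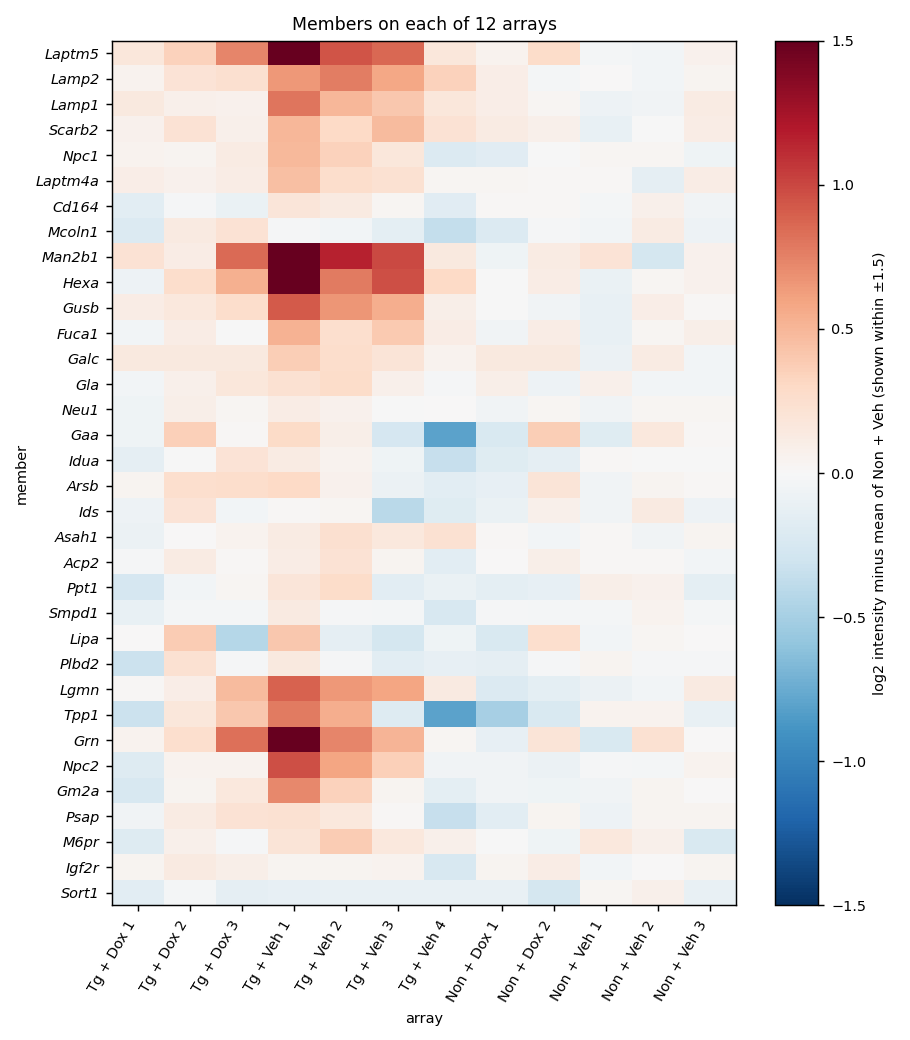
Log2 intensity of each of the 34 members tested (rows, grouped by role) on each of 12 arrays (columns), minus the mean of the 3 Non + Veh arrays, with colours cut at 1.5 on either side of 0. The red block lies in Tg + Veh 1, 2 and 3, is darkest in Tg + Veh 1, and recurs more faintly in Tg + Dox 3.

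The arrays of a group were not alike across the members. Tg + Veh 1 was the highest of its group in 25 of the 34 members and in 7 of the 8 called ones, and Tg + Veh 3 was the lowest in 28. Among the Tg + Dox arrays, replicate 1 was the lowest in 29 members, and replicate 3 was the highest in 19, including 6 of the 8 called ones. Tg + Veh 4, the array outside the tests, lay below the other Tg + Veh arrays in 27 members and in all 8 called ones. It still lay above all Non + Veh arrays in 6 of the 8. On it Lamp2 was at 12.36, Lamp1 at 13.64, Hexa at 9.76, Lgmn at 11.96 and Gusb at 6.06. No share of all genes is given for these ranks, so they may not be particular to the members. The means of neuron markers and of endothelial and mural markers were also lowest of the group on Tg + Veh 4, at 13.95 and 8.14.

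The calls rested on which arrays entered. With all 12 arrays no member was called in either Tg comparison, and the difference of Lamp2 in Tg + Veh over Non + Veh was 0.59 (adjusted p = 0.0890). Without Non + Veh 3 and Non + Dox 2, the arrays at odds with their labels in Esyt2, Lamp2 was the only member called in Tg + Veh over Non + Veh, at 0.68 (adjusted p = 0.0246), and none was called in Tg + Dox over Tg + Veh. When single arrays were left out, 2 to 8 members were called in Tg + Veh over Non + Veh. Lamp2 was called in all 11 such fits, Hexa in 3 and Man2b1 in 2, while their differences ran from 0.62 to 0.71, 0.87 to 1.26 and 1.07 to 1.49. Gusb passed the filter only through Tg + Veh 1 and was not tested without it. The fall of Lamp2 in Tg + Dox over Tg + Veh was called in 4 of 11.

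The test of the methods, a two-way analysis of variance with genotype, feed and their interaction at p at or under 0.01 for any term, was passed by 9 of the 34 members, against 8.09% of all genes tested. These were the 8 called members and Npc1. The genotype term was passed by 9 (3.77% of all genes), the feed term by Lamp2 and Gusb (5.14%), and the interaction by Lamp2 (1.46%). The methods assign a gene that passes to the pattern its group means resemble most, and all 9 were assigned to the one in which Tg + Veh alone is high. Passing with that pattern held for 2.47% of all genes tested, or 311 of the 1016 genes that passed. After Benjamini-Hochberg adjustment no member passed any term, and 8 of all 12566 genes did.

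Markers of glial cells were also higher in Tg + Veh. Of 15 microglia markers 11 were tested, and 7 rose in Tg + Veh over Non + Veh at an adjusted p under 0.05, at a median difference of 1.48. Their mean level per array ran from 7.79 to 8.48 in Tg + Dox, 8.83 to 9.59 in Tg + Veh, 7.37 to 7.60 in Non + Dox and 7.46 to 7.60 in Non + Veh. P2ry12, Tmem119 and Fcrls, which mark homeostatic microglia, were under the signal limit on all 11 arrays. Within the Tg groups the arrays stood in the order seen in the called members. The highest mean of Tg + Veh was on replicate 1 for both, 9.59 for the microglia markers and 10.79 for the called members, and the highest mean of Tg + Dox was on replicate 3 for both, at 8.48 and 10.10. Tg + Veh 4 was at 8.09 for the microglia markers and 9.89 for the called members.

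All 9 astrocyte markers tested were higher in Tg + Veh over Non + Veh, at a median of 0.49, and 6 were called. Array means of the astrocyte markers ran from 10.76 to 11.19 in Tg + Dox and 11.42 to 11.71 in Tg + Veh. They ran from 10.50 to 10.51 in Non + Dox and 10.46 to 10.71 in Non + Veh. Their arrays stood in the same order as the microglia markers, with Tg + Veh 1 at 11.71, Tg + Dox 3 at 11.19 and Tg + Veh 4 at 10.93. All 9 oligodendrocyte markers tested were higher, at a median of 0.45, and 5 were called. Array means of the oligodendrocyte markers ran from 9.99 to 10.26 in Tg + Dox and 10.50 to 10.66 in Tg + Veh. They ran from 9.92 to 10.04 in Non + Dox and 10.09 to 10.18 in Non + Veh. These markers did not keep that order: Tg + Veh 1, at 10.50, and Tg + Dox 3, at 9.99, were the lowest of the tested arrays of their groups. None of 10 neuron markers was called, at a median of −0.16, and none of 9 endothelial and mural markers, at −0.07. Neuron markers were at array means of 14.04 to 14.15 in Tg + Dox, 14.02 to 14.11 in Tg + Veh, 14.11 to 14.14 in Non + Dox and 14.10 to 14.23 in Non + Veh. Of the markers of blood leukocytes and border macrophages, 6 of 9 were under the signal limit. The 2 tested had their highest means on Tg + Veh 1, at 8.96, and Tg + Dox 3, at 8.89. Endothelial and mural markers were highest on Tg + Dox 3, at 8.78, but in Tg + Veh on replicate 3, at 8.80. Neuron and choroid plexus markers had neither Tg + Veh 1 nor Tg + Dox 3 highest. High values on these arrays were thus not limited to the microglia and astrocyte lists. In Tg + Dox over Tg + Veh, limma called 3 of 9 oligodendrocyte markers lower (0.613% of all genes). It called 1 of 9 astrocyte markers and 0 of 11 microglia markers lower there. Choroid plexus markers, 4 of 6 tested, had medians of −1.37 in Tg + Dox over Tg + Veh and 0.57 in Tg + Veh over Non + Veh, none of them called. The part of these cells in the differences of the lysosomal genes was not tested.

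**Figure D4:**
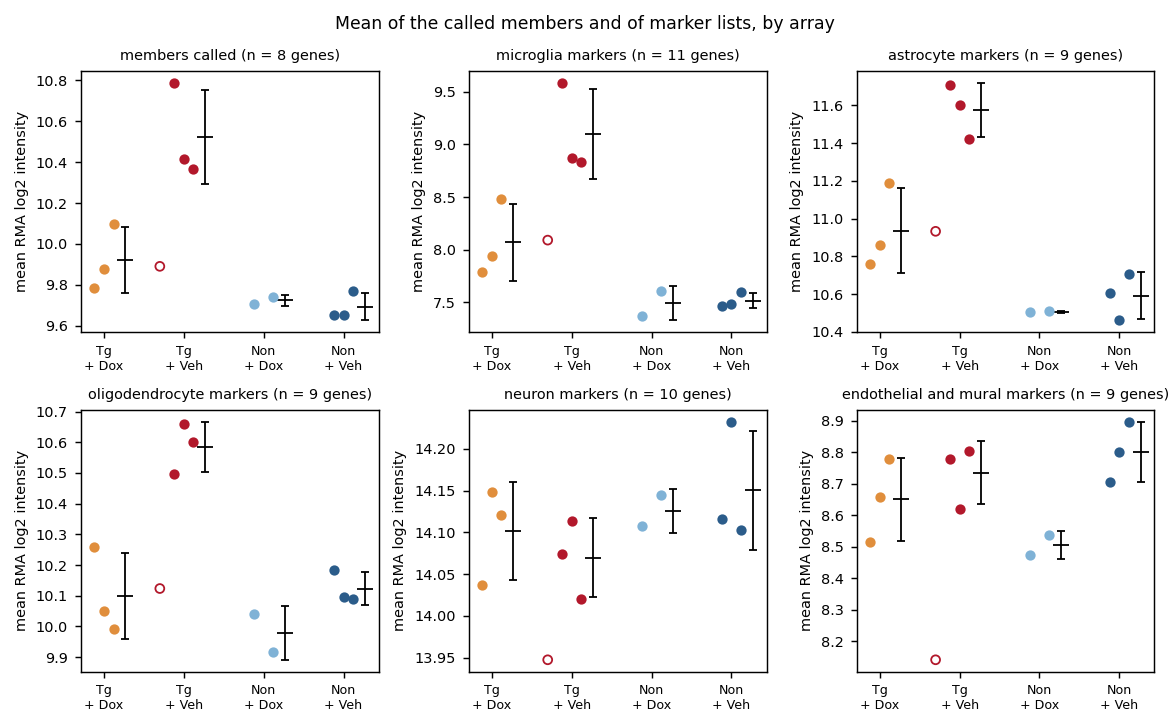
Mean RMA log2 intensity per array (y axis) of the 8 called members and of 5 marker lists, by group (x axis), with the mean and SD of each group beside the points. The open point is Tg + Veh 4, which is in no mean. The called members, microglia, astrocyte and oligodendrocyte markers have all 3 filled Tg + Veh points above the other groups, which the neuron and endothelial markers do not. The called members were chosen by their rise over Non + Veh on these arrays, so for them the gap over Non + Veh follows from the choice. The gaps over Tg + Dox and Non + Dox rest on the same Tg + Veh arrays.

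Further lysosomal genes, listed apart from the set, held 1 called gene. Of 29 further lysosomal enzymes and membrane proteins, 20 were tested, and the called gene was Cd63, a tetraspanin of late endosomes and lysosomes. It rose by 1.04 in Tg + Veh over Non + Veh (adjusted p = 0.00433) and fell by 0.86 for Tg + Dox over Tg + Veh (adjusted p = 0.0179). Cd68, the lysosomal glycoprotein of phagocytes that also stands in the microglia list, differed by 2.43 (adjusted p = 0.0551), and Sumf1, which activates sulfatases, by 0.22 (adjusted p = 0.0571). The median of the 20 was 0.05. None of 14 subunits of the V-ATPase, the proton pump that acidifies lysosomes, was called, at a median of 0.05, and 3 had an unadjusted p under 0.05 (10.2% of all genes, higher), Atp6v1f, Atp6v0e and Atp6ap2, with differences of 0.14, 0.36 and 0.13. The 7 tested relatives and regulators of TFEB, among them Fnip2, Fnip1 and Mitf at 0.26, 0.21 and 0.17, had a median of 0.11, and none was called.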

How the data were processed

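Clariom D arrays of mouse cortex were read from the table the authors deposited, which holds log2 intensities made with the Robust Multi-Array algorithm (RMA), 1 column per sample and 72688 rows. RMA corrects background and equalises the distributions of arrays, so a shift shared by all genes would not be seen. Software versions are not given in the sources used here. The array annotation gave 1 symbol to 30646 rows and several to 2168, and 39874 rows are unnamed here. Genes over the minimum intensity set in the methods on any of 11 arrays were tested. The 4 groups were fitted together with limma (version 3.58.1, R 4.3.3) on the deposited values, 5 contrasts were taken, and p was adjusted by Benjamini-Hochberg over all 12566 genes for each contrast, with a threshold of 0.05. The fit was tested on simulated data. Intervals are at 95%. The number of arrays limits the precision. Replicate numbers were not used as pairs.

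Per-array values are given for each member called in any contrast, for the member with the largest difference in each role group, and, chosen after their values were seen, for Npc2 (just outside the threshold) and Tpp1. Up to 3 genes were named in each further list. Members and lists were chosen with earlier results of these data known. Alternatives covered the arrays used, the filter, the scaling, the row per symbol, sex, the replicate number and the variance model. Promoter windows and gene records are from RefSeq, GRCm38.p6, matched by symbol for 35 of the 40 members found. The array annotation names no build, so no coordinates of rows are given.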

Additional observations from a re-analysis of the deposited data

Results flagged for a closer look

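Among the 40 members with a row, 2 had 1 Tg + Veh array far from the other 3 by Dixon's ratio, and chance would give about 1 in 20. Sort1 was at 14.142 on Tg + Veh 1, below the other Tg + Veh arrays, which all held the same deposited value, 14.157. With such a repeat the ratio is large for any small gap, and the chance rate does not apply. Igf2r was at 8.07 on Tg + Veh 4, the array outside the tests, below the others of its group.

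For Galc, every Tg + Dox array lay below Tg + Veh arrays 1 to 3, whereas every Non + Dox array lay above every Non + Veh array. Tg + Veh 4, outside the tests, was at 8.29, below the Tg + Dox arrays. The limma interaction of genotype and feed was −0.27 (adjusted p = 0.540) and did not pass the test. All 5 arrays from mice on doxycycline held the same deposited value, 8.38. The spread of Galc within those groups is therefore not measured.

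Rows under the filter on signal entered none of the main comparisons. In 2 members among them, Naglu and Manba, Tg + Veh arrays 1 to 3 lay above all Non + Veh arrays, a separation found in 4.48% of the 17618 genes under the filter. Naglu, which degrades heparan sulfate, had a mean 0.298 higher in Tg + Veh than in Non + Veh and did not pass in the limma fit without the filter (adjusted p = 0.158). Manba, the lysosomal β-mannosidase, had a mean 0.0669 higher and did not pass there either (adjusted p = 0.655). The lowest Manba value on those Tg + Veh arrays was 6.515, against 6.511 on all 3 Non + Veh arrays.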

How the results depend on the processing

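In Tg + Veh over Non + Veh, where 8 members were called, 0 were called with all 12 arrays, 2 with the replicate number as a block (Gusb and Lamp2), 5 with sex as a term, 2 with no filter on signal and 5 after quantile normalization, and 2 to 8 when single arrays were left out. In Tg + Dox over Tg + Veh, where Lamp2 was called, 0 members were called with all 12 arrays, 0 with the replicate block, 0 with no filter and 2 after quantile normalization (Gusb and Lamp2), and 0 to 3 when single arrays were left out. Leaving out Tg + Veh 3 gave the 3, Gusb, Lamp2 and Npc2, and the same 8-member count with Npc1 and Npc2 in place of Hexa and Scarb2. Without Non + Veh 1 or Non + Veh 2 alone, 2 members were called in Tg + Veh over Non + Veh, and without Tg + Veh 1, 3. Chosen after seeing the data, leaving out Non + Veh 3 and Non + Dox 2 together left 1 and 0 called, and a filter on the mean of the arrays 7 and 1. The other 3 contrasts had 0 members called under every alternative run. Calls over all genes were 251 and 87 in the first 2 contrasts, 1 and 0 with all 12 arrays, 122 and 11 with the block and 148 and 8 with no filter. The methods' test, passed by 9 members, was passed by 2 with all 12 arrays, 0 after Benjamini-Hochberg, and 3 to 8 leaving out single arrays. The difference of Ids in Tg + Veh over Non + Veh ran from −0.19 to 0.021 leaving out single arrays, and changed sign without Tg + Veh 3. Same-numbered arrays of different groups did not deviate together (r from −0.304 to 0.407 over 15 pairs), and 2 of 11 arrays correlated best with their own number. The cause of these changes was not tested. Gusb, Laptm5 and Npc2 had no Non array over the signal limit, so their levels there are dim. Idua had 1 Non + Veh array over it. The standard errors of Gusb, Laptm5 and Npc2 in Tg + Veh over Non + Veh, 0.096, 0.203 and 0.135, were not the largest of the set.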
